A study of Sus scrofa with 16 samples.

Results

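The Toll-like receptor (TLR) family was read in colonic mucosa and liver of pigs fed corn starch (CS) or raw potato starch (RPS). All 10 members, TLR1 to TLR10, were found on the array through the gene name or the bracketed symbol in the probe description, with 14 probes among the 43603 that were not controls. The arrays named 7112 distinct symbols in all. TLR1, TLR2, TLR5, TLR6, TLR7, TLR8, TLR9 and TLR10 had 1 probe each, TLR3 had 2 and TLR4 had 4. A further 2 probes that were described as pig TLR4 without carrying the symbol are given with the closing observations.

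Castrated male Duroc × Landrace × Large White pigs started the trial at an age of 70 d and were fed for 100 days, in phases of 50 days, until an age of 170 d. The control diet held 230 g/kg purified corn starch, and 280 g/kg from an age of 120 d, and in the RPS diet the same amounts of purified raw potato starch took its place, so that both diets shared the corn and soybean base and differed in the source of the purified starch. The trial held 36 pigs, 3 in each of 6 pens per diet. The arrays covered 4 groups of 4 pigs, which were colonic mucosa with the CS diet, colonic mucosa with the RPS diet, liver with the CS diet and liver with the RPS diet, with RNA of 1 pig on each 1-colour array. The mucosa was scraped from the proximal colon and held every cell type of that layer, and as 1 pig was sampled from each pen, some colon and liver arrays came from the same pig, although the labels do not state which.

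TLRs are membrane receptors of innate immunity that bind molecules common to many microbes and start signalling through adaptors such as MYD88 and TICAM1 to NF-kB and interferon regulatory factors. TLR1, TLR2, TLR6 and TLR10 form a related group at the cell surface, in which TLR2 pairs with TLR1 or TLR6 to bind bacterial lipopeptides. TLR4 with its partner LY96 binds lipopolysaccharide, TLR5 binds flagellin, and TLR3, TLR7, TLR8 and TLR9 bind nucleic acids inside endosomes. In the gut these receptors are found on epithelium, macrophages, dendritic cells and lymphocytes, and in the liver on Kupffer cells, the resident macrophages, as well as on other cell types.

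Each probe was a single strand of 60 bases, and the sequences were taken from the scanner files. The 2 TLR3 probes are shown because they shared a run of 48 bases, in capitals, and so read nearly the same stretch of the transcript and were not independent measurements.
TLR3 A_72_P303279: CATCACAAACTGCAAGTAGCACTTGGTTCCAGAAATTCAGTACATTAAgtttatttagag
TLR3 A_72_P471206: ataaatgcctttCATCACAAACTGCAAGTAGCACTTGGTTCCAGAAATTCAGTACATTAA

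The probes on which the diet and tissue comparisons turn are shown next, TLR6, TLR9 and TLR2 as whole probes and TLR7 and TLR10 by their first 30 bases.
TLR6 A_72_P088166: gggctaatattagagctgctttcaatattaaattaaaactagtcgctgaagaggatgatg
TLR9 A_72_P232812: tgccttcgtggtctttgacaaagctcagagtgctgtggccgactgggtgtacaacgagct
TLR2 A_72_P088356: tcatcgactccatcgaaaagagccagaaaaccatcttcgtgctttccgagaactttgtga
TLR7 A_72_P165031: ctacccttaagaagtactggtatgtataga
TLR10 A_72_P177551: ggtgttcatcctggcattgtttataatcat

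Over the 84 pairs of probes for different TLR genes, the longest run of bases in common was 8, although TLR1, TLR6 and TLR10 are close relatives whose genes lie next to each other on 1 chromosome in the RefSeq table of the pig genome (Sscrofa11.1), as do TLR7 and TLR8 on the X chromosome. The 4 TLR4 probes shared runs of at most 7 bases with each other.

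Signals are given on the log2 scale after quantile normalization, colon and liver separately for the diet comparisons and all 16 arrays together for the comparison of tissues. Levels of different probes are not comparable. The median signal of an array lay between 56.3 and 70.8 in the colon with the CS diet, 34.2 and 42.5 in the colon with the RPS diet, 30.6 and 37.9 in the liver with the CS diet and 31.1 and 37.9 in the liver with the RPS diet, and 61.1% to 72.2% of the probes were well above background. Slide and scan were particular to each group of 4 arrays and cannot be told apart from diet or tissue, and p-values measure the spread between the 4 pigs of a group. In the colon, CS replicate 3 and RPS replicate 2 stood apart from the other 6 arrays, with higher B cell markers and lower epithelial markers, and results that rest on them are given without them too. The markers of both tissues went with the labels. All 12 hepatocyte markers measured were lower in colon, with TTR, FGA, FGG and CYP2E1 above background on 0 of 8 colon arrays, and 9 of 10 markers of colonic epithelium were called higher in colon, with CDX2, KRT20 and SLC26A3 above background on 0 of 8 liver arrays.

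The first question was whether the long-term RPS diet went with other levels of TLR transcripts in colonic mucosa. TLR6 rose 1.52-fold and TLR7 fell 3.38-fold with the RPS diet. Both passed the thresholds named in the methods, a limma p below 0.05 before adjustment and a change of more than 1.5-fold. No TLR probe passed after Benjamini-Hochberg adjustment, nor did any of the 43603 probes of the array in limma, of which 2362 had an unadjusted p under 0.05. The 2 of 14 TLR probes past both thresholds stood against 2.94% of all probes, 1 higher against 1.62% and 1 lower against 1.32%, and 3 of 14 TLR probes had an unadjusted p under 0.05 against 5.42% of all probes. For all probes, 708 of 1283 calls (55.2%) were higher with the RPS diet, and 1342 of 1955 (68.6%) after scaling to the 75th percentile. Of the 14 probes, 11 were lower and 3 higher with the RPS diet, with a median log2 difference of -0.31 against 0.01 over all probes.

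**Figure D1:**
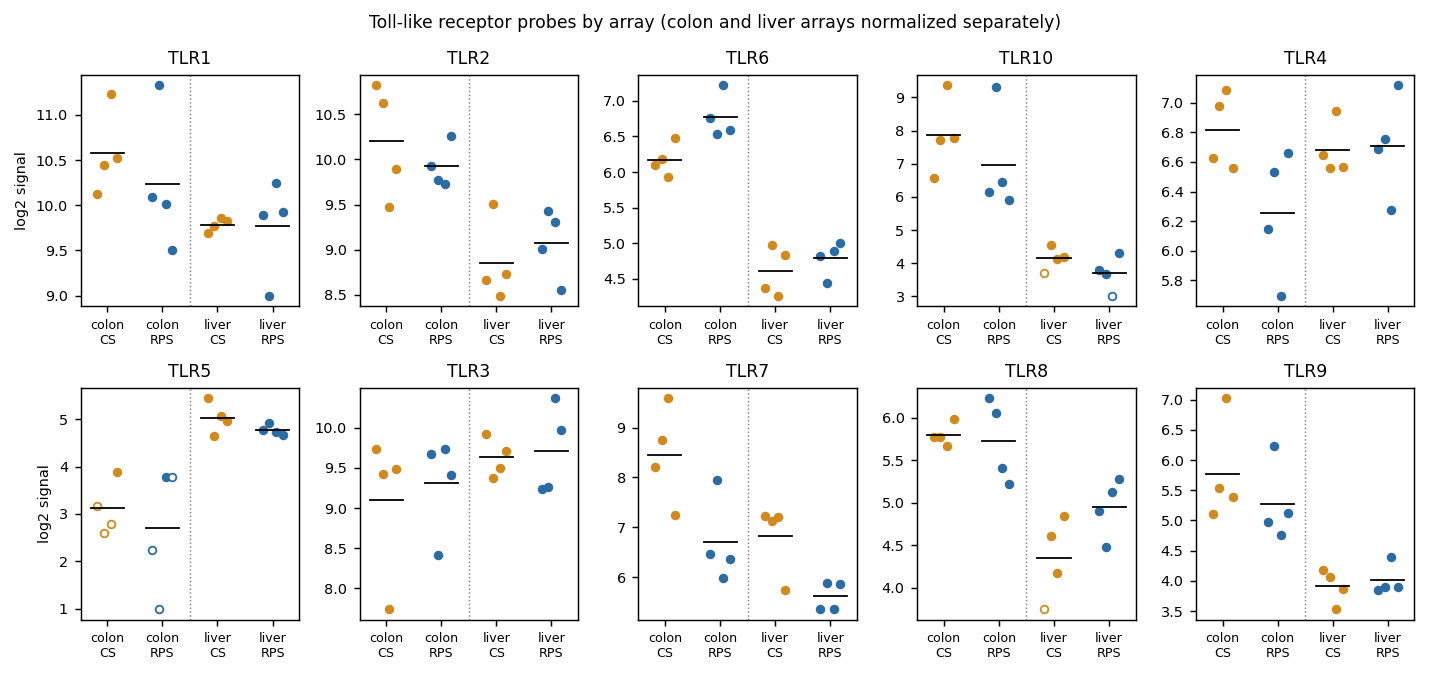
Log2 signal of the brightest colonic probe of each TLR gene on each of the 16 arrays, by tissue and diet (4 arrays each), with the group mean as a bar. Filled points were well above background and open points were not. The 4 TLR6 values of colon with the RPS diet, 6.53 to 7.22, lie above the 4 with the CS diet, 5.94 to 6.47, and most TLR5 points of the colon are open. Colon and liver were normalized separately.

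Among the surface receptors, TLR6, the partner of TLR2 for diacylated lipopeptides, had log2 signals of 6.09, 6.18, 5.94 and 6.47 in the colon with the CS diet and 6.75, 6.53, 7.22 and 6.58 with the RPS diet. Every array with the RPS diet was above every array with the CS diet, which held for 1 of the 14 TLR probes and for 6.51% of all probes. The means were 6.17 ± 0.22 (SD) and 6.77 ± 0.31, and the log2 difference was 0.60 (SE 0.19, 95% interval 0.16 to 1.05, limma p = 0.015, adjusted p = 0.789, two-sided exact permutation p = 0.0286). With 4 against 4 arrays no smaller exact p is possible. The fold lay just above 1.5, and TLR6 missed it without CS replicate 1 (0.58), without CS replicate 3 (0.53), without RPS replicate 3 (0.45), after 75th percentile scaling (0.54) and after normexp background correction (0.33).

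TLR2, which binds lipopeptides together with TLR1 or TLR6, had signals of 10.82, 10.62, 9.48 and 9.89 with the CS diet and 9.93, 9.77, 9.73 and 10.26 with the RPS diet, so that the lowest and the highest arrays both had the CS diet. The difference was -0.28 (SE 0.31, 95% interval -1.02 to 0.46, exact permutation p = 0.400). TLR1, its partner for triacylated lipopeptides, had 10.12, 10.44, 11.23 and 10.53 with the CS diet and 10.09, 11.33, 10.02 and 9.51 with the RPS diet, a difference of -0.35 (SE 0.42, 95% interval -1.32 to 0.63, exact permutation p = 0.429). The highest TLR1 array of each diet was one of the 2 arrays that stood apart. TLR10, the member of this group whose ligand is least settled and which is known from B cells, had 6.57, 7.70, 9.37 and 7.78 with the CS diet and 6.16, 9.33, 6.45 and 5.90 with the RPS diet. Its difference was -0.90 (SE 0.90, 95% interval -3.00 to 1.20, exact permutation p = 0.314), and the same 2 arrays, CS replicate 3 and RPS replicate 2, were again the highest of their diets. Without RPS replicate 2 the difference was -1.69 (limma adjusted p = 0.544), and without both of these arrays it was -1.19 (limma adjusted p = 0.459), past both thresholds each time. Without CS replicate 3 alone it was -0.40 and did not pass. TLR1 also passed without RPS replicate 2 (-0.71, limma adjusted p = 0.578), and its difference was -0.13 without CS replicate 3.

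TLR4, the lipopolysaccharide receptor, had 4 probes, all of them lower on average with the RPS diet. The brightest had signals of 6.63, 6.98, 7.09 and 6.56 with the CS diet and 6.15, 6.53, 5.69 and 6.66 with the RPS diet. One array with the RPS diet reached the range of those with the CS diet, and the difference of -0.56 (SE 0.24, 95% interval -1.12 to 0.01) did not pass (limma p = 0.053, adjusted p = 0.923, exact permutation p = 0.114). A second probe, A_72_P547391, differed by -0.53 (SE 0.20, limma p = 0.033, exact permutation p = 0.0857) and stayed under the fold threshold. The dimmer probes A_72_P419074 and A_72_P444577 differed by -0.04 and -0.25, were above background on 3 of 4 arrays with the RPS diet, and had differences of 0.02 each after normexp correction, which turned their sign. The brightest TLR4 probe passed both thresholds after 75th percentile scaling (-0.62), without RPS replicate 2 (-0.65) and without RPS replicate 4 (-0.69), and was -0.30 after normexp correction. A_72_P547391 passed without RPS replicate 2 (-0.62), RPS replicate 4 (-0.63) or CS replicate 4 (-0.62).

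TLR5, the flagellin receptor, was well above background on 1 of 4 colon arrays with each diet. Its signals were 3.18, 2.60, 2.80 and 3.89 with the CS diet and 2.24, 0.99, 3.77 and 3.79 with the RPS diet, with a difference of -0.42 (SE 0.67) between values of which most were at or near background.

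Among the endosomal receptors of nucleic acids, TLR7, which binds single-stranded RNA, had colonic signals of 8.22, 8.75, 9.59 and 7.26 with the CS diet and 6.47, 7.95, 5.99 and 6.37 with the RPS diet. The groups overlapped through 1 array of each diet, CS replicate 4 and RPS replicate 2, and the other 3 arrays with the RPS diet lay below the CS group. The means were 8.45 ± 0.98 (SD) and 6.70 ± 0.86, and the log2 difference was -1.76 (SE 0.59, 95% interval -3.15 to -0.36, limma p = 0.020, adjusted p = 0.815, exact permutation p = 0.0571). The call was lost at a p just over 0.05 without RPS replicate 3 (-1.53), RPS replicate 4 (-1.64) or CS replicate 2 (-1.66), with limma adjusted p of 0.886 or more. The difference was -1.80 without the 2 arrays that stood apart, where it passed (limma adjusted p = 0.348).

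TLR8, the other receptor of single-stranded RNA, had 5.77, 5.77, 5.67 and 5.99 with the CS diet and 6.23, 6.06, 5.42 and 5.22 with the RPS diet. The arrays with the RPS diet lay on both sides of the narrow CS group, and the difference was -0.07 (SE 0.24). TLR9, which binds unmethylated CpG DNA, had 5.11, 5.54, 7.02 and 5.38 with the CS diet and 4.97, 6.24, 4.76 and 5.13 with the RPS diet, a difference of -0.49 (SE 0.50, exact permutation p = 0.457). TLR3, the receptor of double-stranded RNA, had 9.73, 9.42, 7.74 and 9.49 with the CS diet and 9.67, 8.41, 9.74 and 9.42 with the RPS diet at its brighter probe, and the difference of 0.21 (SE 0.50) was the same at the other. CS replicate 3 and RPS replicate 2 were the highest arrays of their diets for TLR9 and the lowest for TLR3. Without both arrays the difference was -0.39 for TLR9 and 0.06 for TLR3, and neither passed.

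**Figure D2:**
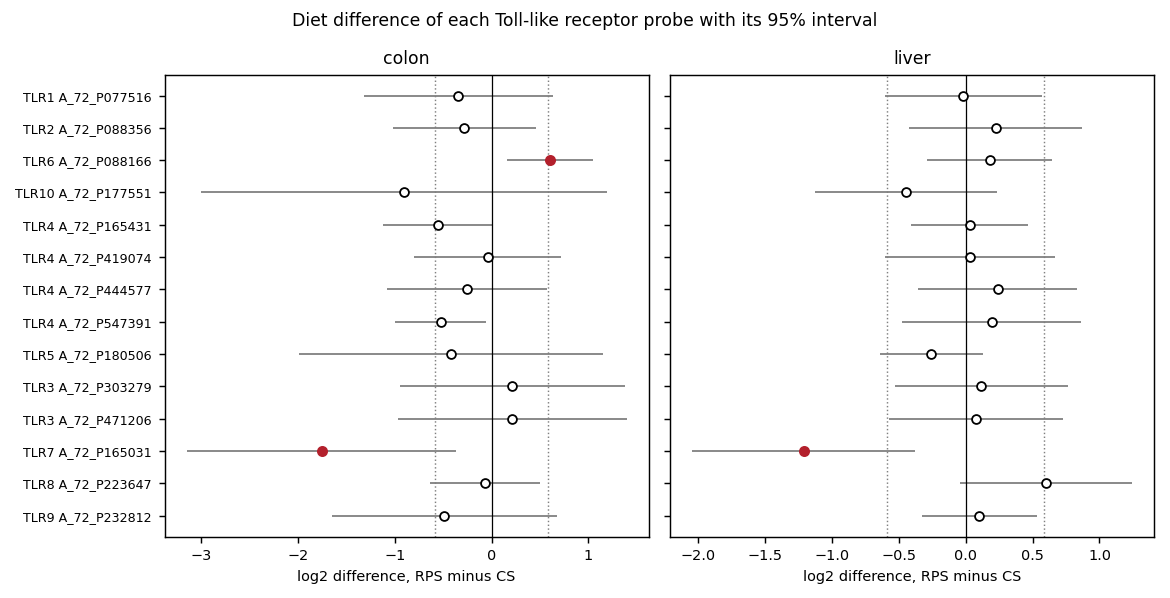
Log2 difference RPS minus CS of each of the 14 TLR probes in colon and in liver, with the 95% interval as a line and dotted lines at a 1.5-fold change. Red points passed both thresholds, which were TLR6 (0.60) and TLR7 (-1.76) in the colon and TLR7 (-1.21) in the liver.

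In liver, TLR7 was the 1 of 14 TLR probes that passed both thresholds, and it fell 2.31-fold with the RPS diet, beside 3.56% of all probes in both directions and 1.76% that were lower. After adjustment 0 of 14 TLR probes passed and 1 of all 43603 (0.00229%). Its signals were 7.23, 7.13, 7.20 and 5.75 with the CS diet and 5.36, 5.88, 5.37 and 5.86 with the RPS diet. Of the CS arrays 3 lay well above all others, while CS replicate 4 fell within the RPS group. The means were 6.83 ± 0.72 (SD) and 5.62 ± 0.29, and the difference was -1.21 (SE 0.36, 95% interval -2.04 to -0.38, limma p = 0.010, adjusted p = 0.497, exact permutation p = 0.0857). Without CS replicate 4 it was -1.57. No TLR probe separated the diets completely in liver, against 4.45% of all probes.

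Of the 14 probes, 10 were higher and 4 lower with the RPS diet in liver, with a median log2 difference of 0.09 against -0.00 over all probes. TLR8 had log2 signals of 3.75, 4.61, 4.18 and 4.85 with the CS diet and 4.91, 4.48, 5.13 and 5.28 with the RPS diet. Its lowest array was not above background, 3 arrays with the RPS diet lay above the CS group, and the difference of 0.60 (SE 0.28, 95% interval -0.04 to 1.25) did not pass (limma p = 0.063, exact permutation p = 0.114). It passed without CS replicate 4 (0.77) and without RPS replicate 2 (0.76), and was 0.06 after normexp background correction.

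The hepatic surface receptors differed by less. TLR6 had 4.37, 4.97, 4.26 and 4.83 with the CS diet and 4.81, 4.45, 4.89 and 5.01 with the RPS diet, a difference of 0.18 (SE 0.20). TLR2 had 8.66, 9.51, 8.49 and 8.73 against 9.0, 9.43, 9.31 and 8.55, a difference of 0.22 (SE 0.28), and TLR1 had 9.69, 9.77, 9.86 and 9.82 against 9.89, 9.0, 10.24 and 9.93, a difference of -0.02 (SE 0.25) whose sign turned after 75th percentile scaling (0.01). For TLR1 the 4 arrays with the CS diet lay within a far narrower range than the 4 with the RPS diet. TLR10 was dim, with 3.72, 4.54, 4.13 and 4.19 against 3.8, 3.67, 3.02 and 4.31 and 1 array of each diet not above background, and its difference of -0.45 (SE 0.29) did not pass with all arrays but did without RPS replicate 4 (-0.65, limma adjusted p = 0.537).

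At its brightest probe TLR4 had 6.65, 6.56, 6.95 and 6.57 in the liver with the CS diet and 6.69, 6.75, 6.27 and 7.12 with the RPS diet, a difference of 0.03 (SE 0.19), and its other probes differed by 0.03, 0.24 and 0.20. TLR5 was above background on all 8 liver arrays, with 5.44, 4.65, 5.07 and 4.96 against 4.76, 4.92, 4.73 and 4.67, a difference of -0.26 (SE 0.17, exact permutation p = 0.200). TLR9 had 4.18, 4.06, 3.53 and 3.86 against 3.85, 3.90, 4.40 and 3.90, a difference of 0.10 (SE 0.18). TLR3 had 9.93, 9.38, 9.51 and 9.72 against 9.24, 9.26, 10.37 and 9.97 at its brighter probe, a difference of 0.08 (SE 0.28). The diets overlapped for each of these 4 genes.

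The diet difference of the colon was tested against that of the liver in 1 limma fit of all 16 arrays. No TLR probe passed (0 of 14, against 3.76% of all probes), none had an unadjusted p under 0.05 (against 4.72% of all probes), and the adjusted p was 0.999 for each. The differences of differences, colon minus liver, ran from -0.73 (TLR4 A_72_P547391, 95% interval -1.50 to 0.05) to 0.44 (TLR6, SE 0.29, 95% interval -0.18 to 1.05). For TLR7, lower with the RPS diet in both tissues, it was -0.61 (SE 0.72, 95% interval -2.17 to 0.94), so that these data did not separate a larger effect in one tissue from an equal one. For TLR8 it was -0.66 (SE 0.38, 95% interval -1.48 to 0.15). Leaving out 1 array brought TLR4 A_72_P547391 (without RPS replicate 2, RPS replicate 4 or CS replicate 4 of the colon or CS replicate 3 or RPS replicate 3 of the liver, -0.91 to -0.82), the brightest TLR4 probe (without RPS replicate 4 of the colon or RPS replicate 3 of the liver, both -0.73) and TLR8 (without RPS replicate 1 of the colon or CS replicate 4 of the liver, both -0.83) past both thresholds, at adjusted p of 0.659 or more.

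Markers of cell types were read beside the TLR values, and in a mixed tissue fewer cells of a type and less RNA per cell cannot be told apart. All 7 B cell markers measured, among them MS4A1, CD79A and PAX5, were lower with the RPS diet, 0 of 7 past both thresholds, with a median log2 difference of -1.60 and a summed signal of 2683 to 75023 with the CS diet and 1281 to 59160 with the RPS diet, every marker being above background on all 8 arrays. Of 9 macrophage markers, 8 were lower and 3 passed, beside 2.94% of all probes. The 3 were the complement subunits C1QA (-0.88), C1QB (-1.27) and C1QC (-1.30). The summed signal of the 9 markers was 44911 to 51407 with the CS diet and 16415 to 35247 with the RPS diet, without overlap. Such a sum is weighted to the brightest markers. The mean of their centred log2 signals did overlap, with 0.30 on RPS replicate 1 above 0.08 on CS replicate 3. Of single probes, 6.51% had no overlap. Smooth muscle markers were lower too (3 of 3, 0 past both thresholds), with summed signals of 26972 to 29357 and 17781 to 23014, again without overlap. Fibroblast markers were lower (3 of 3, 1 past), as were 9 of 10 T cell markers (1 past), while 10 of 10 epithelial and 5 of 8 neutrophil markers were higher (0 past). Plasmacytoid dendritic cells, known for TLR7 and TLR9, were covered by IRF7, GZMB and SPIB, of which 2 of 3 were lower and 0 passed. Without CS replicate 3 and RPS replicate 2, which left 3 arrays per diet and was chosen after seeing the data, 3 of 7 B cell markers (median -2.09) and 4 of 9 macrophage markers (median -0.61) passed, all of them lower, while the calls over all probes numbered 2385 in place of 1283. The part of any of these cell types in the TLR values was not tested.

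In liver, 8 of 9 macrophage markers were lower with the RPS diet and 0 passed, with summed signals of 77081 to 80316 and 66449 to 80792 for the CS and RPS diets. Of the B cell markers, 5 of 7 were above background on all 8 liver arrays and CD79A on 4 of 8, and 5 of 7 were lower, while VPREB3 was higher and passed (0.60). The 3 markers measured for plasmacytoid dendritic cells, IRF7, GZMB and SPIB, were all higher in liver with the RPS diet, 0 past both thresholds. For IL3RA, TCF4, CLEC4C and LILRA4, the other listed markers of these cells, no probe was found. The part of these cells in hepatic TLR7 was not tested.

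The relation of TLR transcripts to the immune cell content of single samples was read over the 8 colon arrays. For each cell type, the log2 signals of its markers were centred over the arrays and averaged to a marker level. Only markers above background on all 8 arrays entered the relations, 7 for B cells and 8 for macrophages, where SIGLEC1 was left out. The 9 TLR genes other than TLR5 were compared with the levels of B cells and of macrophages, which made 18 relations. TLR10 followed the B cell level most closely (r = 0.98, exact permutation p adjusted over the 18 relations 0.007, rho = 0.93 with an adjusted p of 0.040), and r was 0.95 without CS replicate 3 and RPS replicate 2. TLR1 (r = 0.93, rho = 0.83) and TLR9 (r = 0.89, rho = 0.83) also rose with the level (adjusted exact p = 0.007 for r and 0.092 for rho in both), with r of 0.75 and 0.74 without these 2 arrays. TLR3 ran the other way (r = -0.84, adjusted exact p = 0.022, rho = -0.62 with an adjusted p of 0.340), and its relation rested on these arrays, as r was -0.47 without them. TLR7 had r = 0.74 (exact permutation p = 0.043, adjusted p = 0.153), TLR4 0.54, TLR8 0.18, TLR2 -0.43 and TLR6 -0.48. Levels of other cell types were not among the 18 relations. The dendritic cell level was highest on the same 2 arrays, 1.93 and 1.63 against -1.10 to 0.26 on the others. The epithelial level was lowest there, -1.83 and -0.92 against 0.09 to 0.76. Whether a relation was particular to B cells was therefore not tested.

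With each diet's mean taken out, the probe of a gene with several probes was not picked by brightness, and TLR4 was read at A_72_P547391. The marker levels can thus rest on other probes as well. Deviations were permuted over all 8 arrays, also between the diets, so that these p-values are not exact. TLR10 (r = 0.98, adjusted permutation p = 0.005) and TLR1 (r = 0.92, adjusted permutation p = 0.027) kept the relation. For TLR1, r was 0.49 without the 2 arrays. TLR9 (0.88) and TLR3 (-0.86) had an adjusted permutation p of 0.066. TLR7 (0.74, adjusted permutation p = 0.113) had r = -0.21 without the 2 arrays. No TLR gene followed the macrophage level with an adjusted p under 0.05, and r ran from -0.45 for TLR6 to 0.68 for TLR8 (exact permutation p = 0.063, adjusted p = 0.190), with 0.47 for TLR7. A slide held 4 arrays of 1 diet, too few for a correlation within it.

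**Figure D3:**
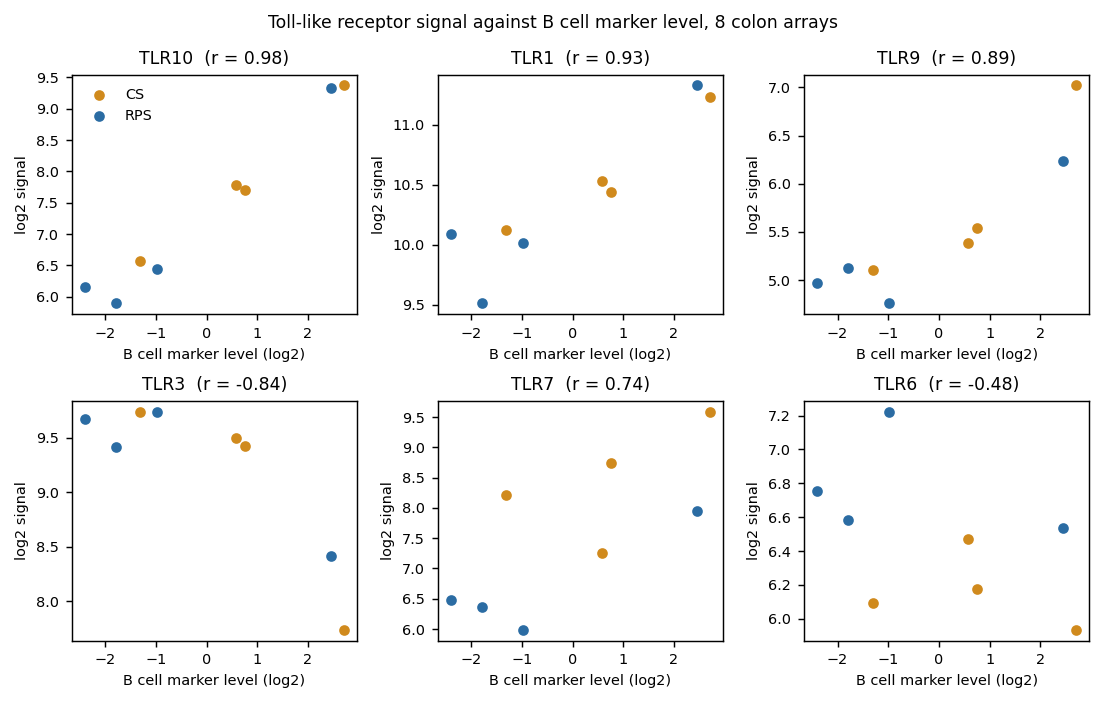
Log2 signal of 6 TLR genes in the colon against the B cell marker level, the mean of the centred log2 signals of 7 markers, over 8 arrays coloured by diet, with r in each panel. CS replicate 3 and RPS replicate 2 are the 2 points at the right, at levels of 2.71 and 2.45. TLR10, TLR1 and TLR9 rise with the level and TLR3 falls at these 2 arrays.

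Of the 5438 symbols measured above background on all colon arrays, the 5 whose pattern over the 8 arrays was most like that of TLR7 were AKR1B1 (r = 0.98), an aldose reductase, KIAA0100 (0.98), ACTA2 (0.97), the smooth muscle actin, ATP6V0E1 (0.97), a subunit of the proton pump that acidifies endosomes, and MED15 (0.97), a Mediator subunit. With the diet means taken out, their r with TLR7 remained between 0.92 and 0.97. For TLR6 they were COX1 (0.92), NKTR (0.92), TNNI3 (0.91), ADRA2B (0.91) and RBMS2 (0.90), and between 0.76 and 0.92 with the diet means taken out. The 8 arrays share the 2 slides, and genes picked as the most alike of 5438 have a high r by that choice.

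Colon and liver differed for most of the family. In the fit of all 16 arrays, 12 of 14 TLR probes were called, with a limma adjusted p below 0.05 and a change of more than 1.5-fold, 5 higher and 7 lower in colon, beside 42.2% of all probes (23.4% higher and 18.7% lower). The 7 lower probes belonged to TLR3, TLR4 and TLR5 alone, while each of the 5 higher probes was a gene of its own. With probes averaged by gene, 8 TLR genes were called, 5 of them higher in colon. Complete separation of the 8 colon from the 8 liver arrays was seen for TLR5, TLR6 and TLR10, and for 26.8% of all probes. TLR10 was the member with the largest difference, 7.87-fold higher in colon, among the members above background on most arrays of both tissues.

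**Figure D4:**
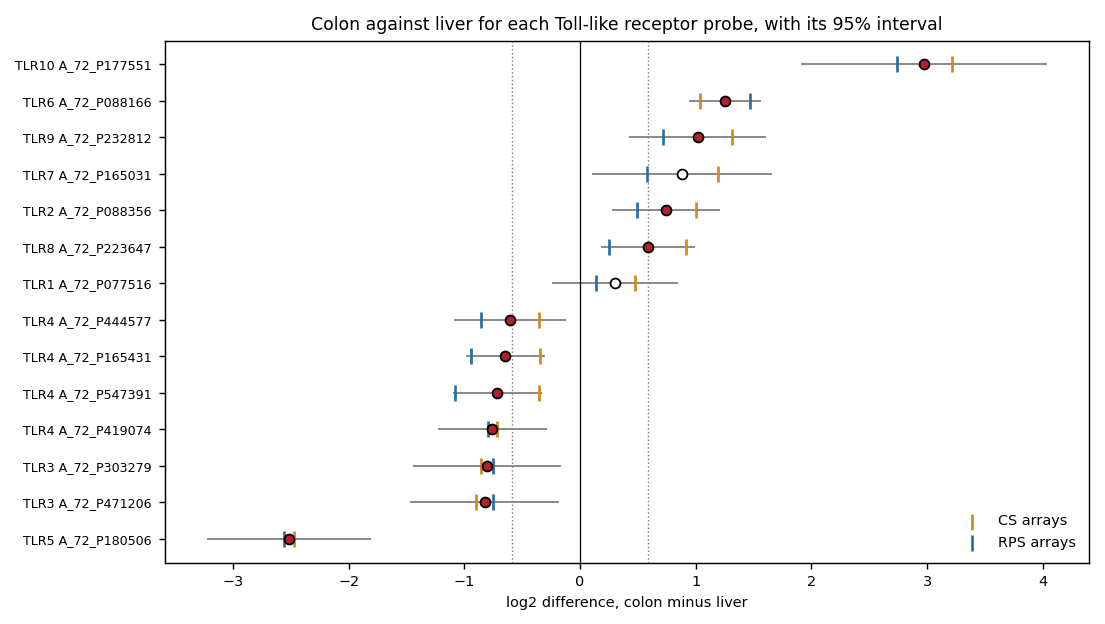
Log2 difference colon minus liver of each TLR probe in the fit of 16 arrays, with the 95% interval as a line and ticks for the arrays with the CS or the RPS diet alone. Red points were called (adjusted p under 0.05 and a fold change above 1.5), from TLR10 at 2.98 to TLR5 at -2.52, which was above background on 2 of 8 colon arrays.

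TLR10 had a mean log2 signal of 7.18 ± 1.41 (SD) in colon and 4.20 ± 0.47 in liver, where it was above background on 6 of 8 arrays, and the log2 difference was 2.98 (SE 0.49, 95% interval 1.91 to 4.04, limma adjusted p = 0.000144). Colon arrays ran from 5.63 to 9.18 and liver arrays from 3.30 to 4.81, so that even the lowest colon array stood above the liver. The difference was 3.22 with the CS diet and 2.74 with the RPS diet. Without the 2 colon arrays that stood apart it was 2.32 and still called. B cell markers differed the same way, 6 of 7 called higher in colon with a median of 3.17, and PAX5 called lower.

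TLR6 was 2.38-fold higher in colon (log2 difference 1.25, SE 0.14, limma adjusted p = 4.02e-06), 1.04 with the CS diet and 1.47 with the RPS diet. TLR9 (1.02, SE 0.28, adjusted p = 0.006, and 0.64 without the same 2 arrays), TLR2 (0.75, SE 0.22, adjusted p = 0.010) and TLR8 (0.59, SE 0.19, adjusted p = 0.018) were higher in colon too, TLR8 at 1.5-fold, and it was above background on 7 of 8 liver arrays. TLR8 differed by 0.92 with the CS diet and by 0.25 with the RPS diet. It lost the call with the RPS arrays alone (0.25, limma adjusted p = 0.535). TLR8 missed the fold threshold after normexp correction (0.17) and without both colon arrays that stood apart (0.55). It also missed it without CS replicate 4 (0.56), RPS replicate 1 (0.50) or RPS replicate 2 (0.53) of the colon. The same held without CS replicate 1 (0.49) or 3 (0.56) or RPS replicate 1 (0.58) or 2 (0.51) of the liver. After normexp correction TLR6 (0.53) and TLR9 (0.33) missed the fold threshold as well. TLR2 lost the call with the CS arrays alone (limma adjusted p = 0.059) and with the RPS arrays alone (limma adjusted p = 0.120). With the RPS arrays alone TLR9 lost it too (limma adjusted p = 0.138). TLR7 (0.88, SE 0.36, adjusted p = 0.054) and TLR1 (0.30, SE 0.25, adjusted p = 0.343) were not called. TLR7 lay close to the threshold and was called in 6 of 28 settings. It was called after 75th percentile scaling (0.94, adjusted p = 0.028) and normexp correction (0.60, adjusted p = 0.048). The others were probes above background alone (adjusted p = 0.037) and the replicate number as a block (adjusted p = 0.040). It was also called without CS replicate 4 (1.09) or RPS replicate 3 (1.01) of the colon. Without the 2 colon arrays that stood apart it was 0.48 (limma adjusted p = 0.181) and not called.

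Like TLR4 and TLR3, TLR5 was lower in colon. It was measured above background on all 8 liver arrays at 5.17 ± 0.26 (SD) and on 2 of 8 colon arrays, where the mean was 2.65 ± 0.91, and the log2 difference was -2.52 (SE 0.33, limma adjusted p = 1.6e-05). It was -2.48 with the CS diet and -2.56 with the RPS diet, and -0.47 after normexp background correction, under the fold threshold. All 4 TLR4 probes were lower in colon, by -0.65 (SE 0.16, adjusted p = 0.003) at the brightest and from -0.76 to -0.61 over the 4, with adjusted p of 0.003 to 0.036. The brightest differed by -0.35 with the CS diet and -0.94 with the RPS diet, and A_72_P547391 by -0.35 and -1.08. With the CS arrays alone both of these and A_72_P444577 lost the call (limma adjusted p = 0.132 to 0.198). With the RPS arrays alone A_72_P419074 and A_72_P444577 lost it (limma adjusted p = 0.157 and 0.133). Scaling to the 75th percentile took it from the brightest (-0.56) and A_72_P444577 (-0.43), and normexp correction from all 4 (-0.34 to -0.07). The brightest missed the fold threshold without RPS replicate 3 of the colon (-0.55) or RPS replicate 4 of the liver (-0.58), and A_72_P444577 was not called without any 1 of 3 colon arrays, RPS replicate 3 (-0.44), CS replicate 1 (-0.60) and CS replicate 4 (-0.55), and 5 liver arrays, RPS replicate 1 (-0.57), RPS replicate 2 (-0.61), RPS replicate 4 (-0.53), CS replicate 1 (-0.57) and CS replicate 3 (-0.55).

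TLR3 was lower in colon at both probes, -0.80 (adjusted p = 0.034) and -0.83 (adjusted p = 0.032). Without CS replicate 3 and RPS replicate 2 of the colon, chosen after seeing the data, the TLR3 differences were -0.43 and -0.45, with adjusted p of 0.057 and 0.053, and the call was lost. Both probes also lost it with the CS arrays alone (limma adjusted p = 0.155 and 0.143, in the same order). With the RPS arrays alone the limma adjusted p was 0.165 and 0.169. At the brighter probe the call was also lost without RPS replicate 2 of the colon (-0.68). The same held without liver RPS replicate 3 (-0.72), RPS replicate 4 (-0.78), CS replicate 1 (-0.78) or CS replicate 4 (-0.81). At the other probe it was lost without any of these arrays and without CS replicate 3 of the colon (-0.58).

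The macrophage markers differed in the same direction as TLR4, 5 of 9 called lower in colon with a median of -2.06, beside 18.7% of all probes. Among them was CD14, the co-receptor that passes lipopolysaccharide to TLR4. Other lists went the same way. Of the endothelial markers 4 of 6 were called lower and 1 higher (median -2.38), of the neutrophil markers 5 of 8 lower (median -1.48) and of the hepatocyte markers 12 of 12. T cell markers were all called higher in colon (10 of 10). The part of cell content in the TLR differences between the tissues was not tested.

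The genes that act with or after the TLRs were read from 5 lists of co-receptors and chaperones, adaptors and kinases, inhibitors, transcription factors and target genes, of which 57 were measured. With the RPS diet 0 of 57 passed both thresholds in the colon (median -0.08, beside 2.94% of all probes) and 0 of 57 in the liver (median 0.12, beside 3.56%). In the colon, the list medians were -0.33 for co-receptors and chaperones, -0.02 for adaptors and kinases, 0.27 for the 2 inhibitors, 0.13 for transcription factors and -0.21 for targets, and of the 24 targets 18 were lower and 6 higher. In liver, 18 targets were higher and 6 lower, with a median of 0.19.

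Between the tissues 35 of 57 were called, 30 higher and 5 lower in colon, beside 42.2% of all probes (23.4% higher and 18.7% lower). Among the co-receptors and chaperones, BPI, which binds lipopolysaccharide, was above background on 0 of 8 liver arrays and at least 656-fold higher in colon, its mean there being set against the lowest signal above background on each liver array (limma adjusted p = 2.79e-12). CD36, a co-receptor of TLR2 and TLR6, was higher (3.45, SE 0.46), as was the TLR4 partner LY96 (0.86, SE 0.20), and CD14 (-5.86, SE 0.19) and LBP (-5.08, SE 0.34), the carrier of lipopolysaccharide made by hepatocytes, were lower. Of the adaptors and kinases, TRAF3 (2.19), TRAF6 (1.21) and MYD88 (1.15) were the largest of 5 called higher, and TICAM2 (-0.77), which links TLR4 to TICAM1, was called lower.

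Of the inhibitors, NFKBIA was higher in colon (0.82) and IRAK3 lower (-2.56), IRAK3 being above background on 4 of 8 colon arrays. Of 9 transcription factors 6 were called, all higher, with FOS (2.63) and IRF1 (2.54) the largest. The targets were called higher in 15 cases and lower in 1. NOS2 (7.05), the inducible nitric oxide synthase, and CCL20 (6.66), a chemokine for CCR6-bearing lymphocytes, were higher in colon. IL1A had a fitted difference of 5.50 against a liver level that was above background on 1 of 8 arrays, and the chemokine CCL3L1 was lower (-5.82, SE 0.20). IFNB1 was not above background on any array of either tissue.

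**Figure D5:**
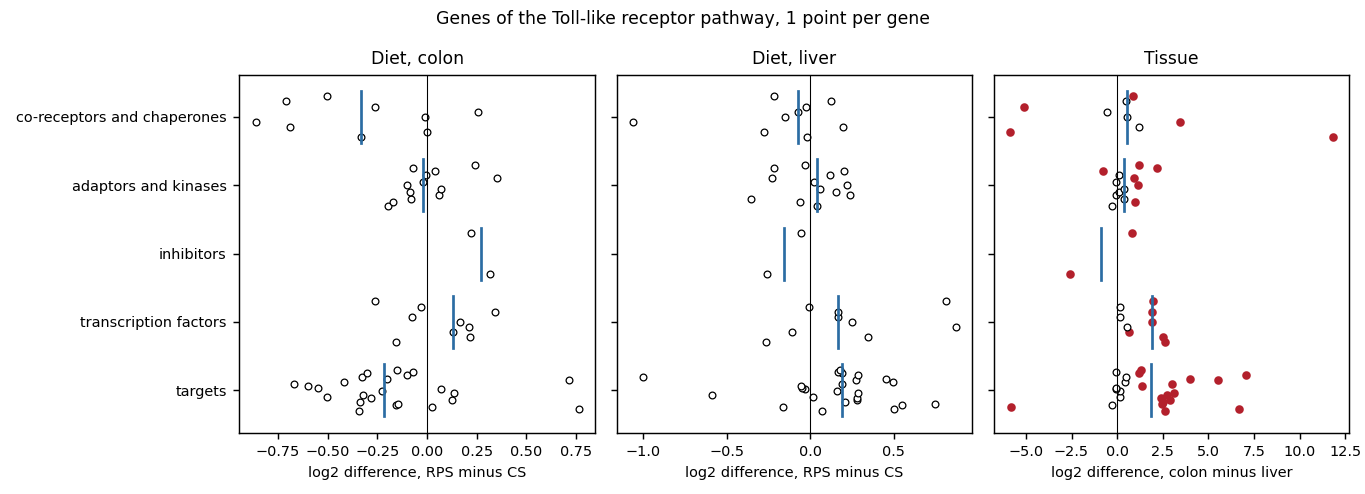
Log2 difference of each of the 57 measured genes of the TLR pathway lists, RPS minus CS in colon and in liver and colon minus liver, with 1 point per gene and the list median as a blue bar. Red points passed the thresholds of their comparison, 0 of 57 with the diet in either tissue and 35 of 57 between the tissues.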

How the data were processed

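Total RNA of colonic mucosa and liver was hybridized to 16 Agilent porcine 1-colour arrays. According to the file headers, the authors' scanner software (Agilent Feature Extraction 10.7 in the submitters' processing notes) gave an intensity for each spot, background-subtracted and not normalized between arrays, together with marks for outliers and for signal well above background. The deposited log2 values were quantile normalized by the authors in GeneSpring and served as an alternative here. The number of arrays limits the precision.

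Of 45220 spots, the 43803 that were not controls were kept, outlier spots were set to missing, and the processed intensities were log2-transformed and quantile normalized, with the mean taken where a probe had several spots. Groups were compared with lmFit and eBayes of limma 3.58.1 in R 4.3.3, with version 1.17.8 of the data.table package, over all 43603 probes, two-sided, with Benjamini-Hochberg adjustment. A diet effect passed with a p below 0.05 before adjustment together with a change of more than 1.5-fold, and a tissue difference at an adjusted p under 0.05 and the same fold. Exact permutation tests covered all 70 assignments of 4 against 4 arrays. Correlations used scipy 1.17.1, and figures matplotlib 3.10.9 (Python 3.11.15, pandas 2.3.3, numpy 2.4.6). The fits were tested on simulated data.

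The brightest probe of each TLR gene and each probe past the thresholds are given by array. Genes most like TLR7 and TLR6, which had the largest colonic difference of each sign, were the 5 with the highest r. Pathway genes past the thresholds were named up to 3 per list and direction between tissues, and markers or further genes beside them were named for the result they touch. The members and lists were chosen with earlier results of these data known. Some genes of these lists are counted in them and not reported here by name. Symbols were found for 14407 probes and not for 29196.

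Alternatives were the authors' log2 values, 75th percentile scaling, normexp background correction (offset 50), quantile normalization over 16 arrays, an intensity trend, the methods' t-test, outlier spots kept, only probes above background in a group, all arrays in 1 fit, the replicate number and the slide as blocks, probes averaged by gene, the arrays of each diet alone and each array left out. Same-numbered arrays deviated together with r between 0.16 and 0.33 for colon and liver with the CS diet, but between -0.08 and 0.07 with the RPS diet and between -0.51 and 0.55 for the diets in the colon. With the CS diet all 4 colon arrays were most like the liver array of their own number, and with the RPS diet 0 were. As the labels do not state the pairs, the main fit held no pig term. It treated colon and liver arrays as independent, although some came from the same pig.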

Additional observations from a re-analysis of the deposited data

Results flagged for a closer look

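In 5 of the 56 groups of 4 arrays of a TLR probe, the array at one end lay far from the other 3 by Dixon's test, which chance alone gives in about 1 in 20 groups. TLR3 was low on the colon array of CS replicate 3 at both of its overlapping probes, 7.54 against 9.23 to 9.47 (A_72_P303279) and 7.74 against 9.42 to 9.73 (A_72_P471206), which is 1 observation made with nearly the same bases. TLR10 was high on the colon array of RPS replicate 2, 9.33 against 5.90 to 6.45. TLR7 was low on the liver array of CS replicate 4, 5.75 against 7.13 to 7.23, and TLR9 was high on the liver array of RPS replicate 3, 4.40 against 3.85 to 3.90. The colon arrays in question are the 2 with the highest B cell marker levels, 2.71 and 2.45 against -2.41 to 0.75 on the others, and the lowest epithelial levels, -1.83 and -0.92 against 0.09 to 0.76. The part of cell content in these values was not tested.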

How the results depend on the processing

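Over 1270 values of single TLR probes in 31 settings, 1220 kept their sign, 63 lost and 28 gained a call, and 0 called values changed sign. In the colon, TLR6 passed in 14 of 20 settings (0.33 to 0.71, adjusted p 0.418 to 1.00) and TLR7 in 17 of 20 (-2.18 to -1.24, adjusted p 0.348 to 1.00), and TLR7 in liver in 19 of 19 (-1.57 to -0.60, adjusted p 0.185 to 0.795). The count of TLR probes past the thresholds in the colon, 2, became 1 after normexp correction and ran from 0 (without RPS replicate 3) to 6 (without RPS replicate 2) with arrays left out. It was 1 without CS replicate 1, 2 or 3, and 3 without both arrays that stood apart. With the replicate number as a block it was 1, as TLR6 then had an unadjusted p of 0.058 in limma. The block left the liver count at 1 and brought the tissue count to 13 through TLR7 (adjusted p = 0.040).

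In the liver the count, 1, became 2 with all 16 arrays in 1 fit, and was 1 to 2 with arrays left out (2 without CS replicate 4, RPS replicate 2 or RPS replicate 4). Between tissues 12 became 5 after normexp correction, 6 with the CS arrays alone and 5 with the RPS arrays alone, and was 8 (without liver CS replicate 1 or RPS replicate 4) to 12 with arrays left out. For the difference of the diet effects 0 became up to 2 with arrays left out. Of all probes, 1283 passed in the colon, against 1955 after 75th percentile scaling, 172 after normexp correction and 780 for probes above background, and 1067 to 2635 with arrays left out. In liver it was 1554, against 220, 965 for probes above background, and 1408 to 2029. Between tissues it was 18379, against 10833 after normexp correction and 18116 to 18344, and for the difference of diet effects 1638, against 296 after normexp correction and 1507 to 2802. Of the pathway genes 1 passed in liver after 75th percentile scaling and 1 with probes averaged by gene. Of the 18 relations to marker levels 4 had an adjusted p under 0.05. With diet means taken out it was 2, where the permutation p is not exact and probes were not picked by brightness. The causes were not tested. Signal over background limits TLR5 in colon and TLR10 in liver.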

Other observations

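The array held 2 further probes described as pig TLR4 without the symbol. A_72_P444572 differed by -0.40 (SE 0.23) between RPS and CS in the colon and by -0.03 (SE 0.20) in the liver, and A_72_P180746 by -0.30 (SE 0.23) and 0.01 (SE 0.21). With them, all 6 probes described as TLR4 were lower on average in the colon with the RPS diet, and 0 of the 6 passed both thresholds. Both were lower in colon than in liver, by -0.39 and -0.47, under the fold threshold.

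Pairs of TLR genes moved together or in opposition over the 8 colon arrays. TLR1 and TLR10 had r = 0.97 and TLR9 and TLR10 r = 0.91, while TLR6 and TLR7 had r = -0.90 and TLR6 and the brightest TLR4 probe r = -0.93. With the diet means taken out, r was 0.97, 0.90, -0.77 and -0.89 in the same order. TLR6 and TLR7 also differed between the diets in opposite directions, which enters their r over both diets. These are descriptions over 8 arrays on 2 slides, with no test, and the first 2 pairs share the 2 arrays with the highest B cell levels.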
